A study of Mus musculus with 12 samples.

Results

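The 49 genes described here are interferon-stimulated genes, chosen by symbol from a list of genes whose transcription rises after interferon treatment. All 49 had a row among the 18467 genes of the count table, and all 49 were among the 12882 genes that passed the filter on low counts and were tested. By role, 4 are transcription factors (Irf1, Irf7, Irf9, Stat2), 2 belong to Isg15 conjugation (Isg15, Usp18), 6 are nucleic acid sensors, 4 are Ifit genes, 5 are Oas genes, 2 are Mx genes, 4 are Ifitm genes, 4 are Gbp genes, 5 are grouped as the Parp family (4 Parp genes and Dtx3l) and 13 are other effectors. The genes were grouped by symbol and role; the rule uses no measured value, although the list was drawn up with earlier results of these data known.

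Interferons are secreted signals that bind surface receptors and activate Janus kinases, which phosphorylate transcription factors. Type I interferon assembles a complex that includes Stat2 and Irf9 and binds the interferon-stimulated response element (ISRE), whereas interferon gamma acts through the gamma-activated site (GAS). The induced genes encode proteins that restrict viruses and other intracellular microbes, and macrophages are among the cells that both make and answer interferons.

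RNA was sequenced from macrophages sorted from the femur and tibia marrow of mice. In the metastatic groups, female Albino B6 mice had received E0771 cells, a mouse mammary carcinoma line, by caudal artery injection at 8 weeks of age, and the normal groups came from healthy control mice, whose strain, sex and age the labels do not give separately. General macrophages were sorted as CD11b+F4/80+ cells and niche macrophages as VCAM1+CD163+CCR3+ cells; the design text calls the second sort niche-specific, although its sample titles also say general. The 4 groups were general macrophages from normal marrow, general macrophages from metastatic marrow, niche macrophages from normal marrow and niche macrophages from metastatic marrow, with 3 libraries each from different mice. No genotype, transgene or drug treatment is given for any group, and all groups share the red cell lysis before sorting. Libraries are numbered 1 to 3 as labelled, except in niche macrophages from normal marrow, where the table's numbers differ from those in the titles and the libraries are called A, B and C.

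Library totals ran from 13687957 to 30332442 counts, and 7689 to 12658 genes reached 10 counts. Niche normal libraries had the fewest such genes, 7689 to 9005, against 9491 or more in every library of the other groups. Pairs of niche normal libraries also differed most, with a chi-square per degree of freedom of 336 to 344, against 134 to 273 in the other groups. The part of this in the low values of that group was not tested. Of 10 macrophage markers, 3 were called higher and 1 lower in niche than in general macrophages from normal marrow, and 2 and 1 in metastatic marrow, with median log2 fold changes of 3.73 and 2.00. Their summed level went the other way, most of it Lyz2, and also separated the states of the marrow. It ran from 18548 to 21637 CPM in general normal and from 10867 to 12102 CPM in general metastatic libraries, against 7948 to 9449 CPM in niche normal and 5127 to 6320.1 CPM in niche metastatic ones. Mertk, an engulfment receptor of tissue macrophages, averaged 2.22 CPM (counts scaled to library size by TMM) in general and 296 CPM in niche libraries of normal marrow, against 1.81 and 125 CPM in those of metastatic marrow. Summed over 10 monocyte markers, general libraries held 6208 to 7152 CPM and niche libraries 1608 to 2266 CPM. Summed over 12 neutrophil markers, general libraries held 14125 to 22777 CPM and niche libraries 9928 to 11911 CPM. Erythroid markers ran from 84.7 to 303 CPM in general and from 805 to 1988 CPM in niche libraries, and B and plasma cell markers from 97.9 to 266 CPM and from 1096 to 3947 CPM. In sorted bulk RNA, fewer cells of a type and less RNA per cell cannot be told apart.

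Upstream sequence was examined because ISRE and GAS are the elements through which interferons act on their targets. A RefSeq window on GRCm38.p6, from 250 bases before to 50 bases after the start site, was matched for 37 of the 49 genes. The ISRE core, GAAA and GAAA separated by any 2 bases and searched on both strands, occurred in 21 of the 37 (56.8%), against 3.99% of the 27025 genes with a window. The GAS pattern TTCNNNGAA, which reads as itself on the other strand, occurred in 11 of the 37 (29.7%), against 9.55% of all. The 250 bases before the start are given for Ifitm6 and Ifi44, called members with a window, for Ifitm2 as a relative of Ifitm6 with an ISRE core, and for Ifit1 and Isg15 as textbook targets. Ifitm2, Ifit1 and Isg15 were chosen after their values were seen. Capitals mark an ISRE core or GAS match on either strand, each sequence reads 5′ to 3′ on the gene's strand, and overlapping matches are joined.
Ifitm6: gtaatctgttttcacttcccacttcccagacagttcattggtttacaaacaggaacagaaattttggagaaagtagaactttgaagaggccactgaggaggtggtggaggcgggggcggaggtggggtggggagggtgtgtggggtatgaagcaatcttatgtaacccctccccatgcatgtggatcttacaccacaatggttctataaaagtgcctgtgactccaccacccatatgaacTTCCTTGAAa
Ifitm2: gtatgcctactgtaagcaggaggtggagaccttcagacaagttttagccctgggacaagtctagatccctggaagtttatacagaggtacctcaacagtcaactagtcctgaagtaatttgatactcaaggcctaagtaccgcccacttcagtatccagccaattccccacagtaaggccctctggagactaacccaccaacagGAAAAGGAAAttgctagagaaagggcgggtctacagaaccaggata
Ifi44: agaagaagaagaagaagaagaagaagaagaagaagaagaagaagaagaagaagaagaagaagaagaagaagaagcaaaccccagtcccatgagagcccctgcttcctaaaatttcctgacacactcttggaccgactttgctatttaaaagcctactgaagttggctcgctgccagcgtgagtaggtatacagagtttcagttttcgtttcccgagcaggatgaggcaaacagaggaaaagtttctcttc
Ifit1: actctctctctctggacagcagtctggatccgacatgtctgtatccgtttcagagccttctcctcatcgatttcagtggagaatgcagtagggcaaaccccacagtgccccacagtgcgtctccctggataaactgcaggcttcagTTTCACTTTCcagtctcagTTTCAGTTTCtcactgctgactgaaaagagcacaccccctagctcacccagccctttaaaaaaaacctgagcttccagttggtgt
Isg15: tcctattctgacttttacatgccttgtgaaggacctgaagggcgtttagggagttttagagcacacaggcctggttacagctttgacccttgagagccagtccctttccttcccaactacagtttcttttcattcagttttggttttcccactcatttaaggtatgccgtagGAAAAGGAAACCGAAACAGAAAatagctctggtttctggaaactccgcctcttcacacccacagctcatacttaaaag

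These windows lie at chr7:141016893-141017142 (minus strand), chr7:140955962-140956211 (minus strand), chr3:151749911-151750160 (minus strand), chr19:34640639-34640888 (plus strand) and chr4:156200819-156201068 (minus strand). In Ifitm6 the capitals mark a GAS match 10 bases before the start, and no ISRE core was matched. Ifitm2 has 1 ISRE core, Ifit1 has 2 and Isg15 has 3 that overlap. No match to either pattern was found in the Ifi44 window, which says only that these letters are not there. Median expression per length was alike with and without an ISRE core: over 12 libraries it was 10.7 CPM per kilobase of exon for the 21 genes with an ISRE core and 10.7 for the 16 without.

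As a set, the 49 genes took 0.276% to 0.490% of each library's counts. Their summed level was 4161 ± 103 CPM (SD, n = 3) for the general normal group, 4290.1 ± 642 CPM for general metastatic, 3269 ± 607 CPM for niche normal and 3510.4 ± 958 CPM for niche metastatic libraries. Ifitm6 made up much of the gap between the sorts. Without it the sums were 3080 ± 201, 3194 ± 425, 2955 ± 625 and 3116 ± 958 CPM in the same order, and the differences between these means were smaller than the SD of the niche groups.

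Per kilobase of exon, the median member stood at 10.5 CPM per kilobase and the median tested gene at 4.86. Ifitm6 led with 797 CPM per kilobase, at the 99.5 percentile of tested genes, followed by Trim30a with 95.7, Ifitm3 with 86.0 and Oas3 with 41.5. Mx2 was last with 0.735, and Isg15 stood at 4.18. Of the 49 genes, 15 (30.6%) had at least 10 CPM in every library, against 26.9% of tested genes. The list thus held both abundant and barely detected transcripts in these cells.

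Many members were detected in some replicates and nearly absent from others of the same group. A library's count of 3, used here as a detection floor, equals 0.109 to 0.243 CPM; such floors and the intervals below cover counting error only. In 15 members at least 1 library was at or below the floor. In 14 (28.6%), a group held 1 library at the floor and another at 10 CPM or more, against 40.8% of all tested genes. This applied to 7 of 7 members with a mean under 10 CPM (74.1% of tested genes at that level), 7 of 17 between 10 and 30 CPM (41.2%, against 51.1%), 0 of 16 between 30 and 100 CPM (against 3.17%) and 0 of 9 at 100 CPM or more (against 0%). The median within-group SD of log2(CPM + 1) was 1.57 for members under 10 CPM and 0.45 for members at 100 CPM or more, against 1.58 and 0.41 for all tested genes at those levels. Between 10 and 30 CPM it was 1.52 against 1.71, and between 30 and 100 CPM the members spread more, at 1.17 against 0.85.

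**Figure D1:**
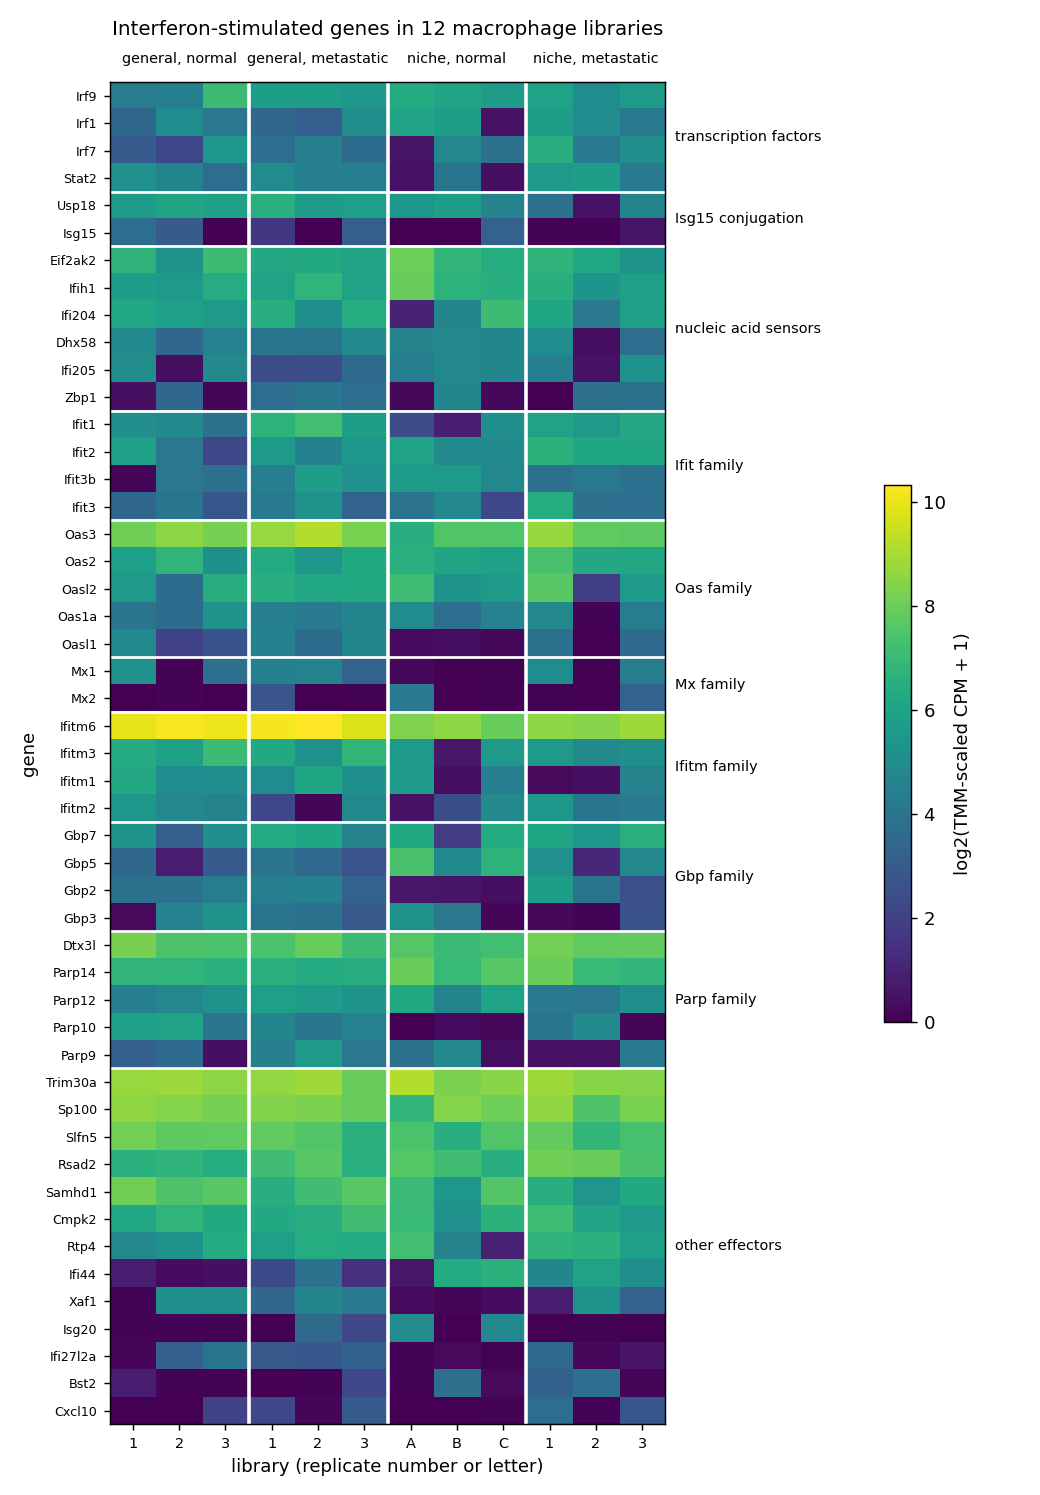
Level of each of the 49 genes (rows, grouped by family) in each of the 12 libraries (columns, grouped by sort and marrow), coloured by log2(TMM-scaled CPM + 1). Ifitm6 is high throughout, and genes such as Mx1, Isg20 and Isg15 switch between near absence and detection within a group.

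**Figure D2:**
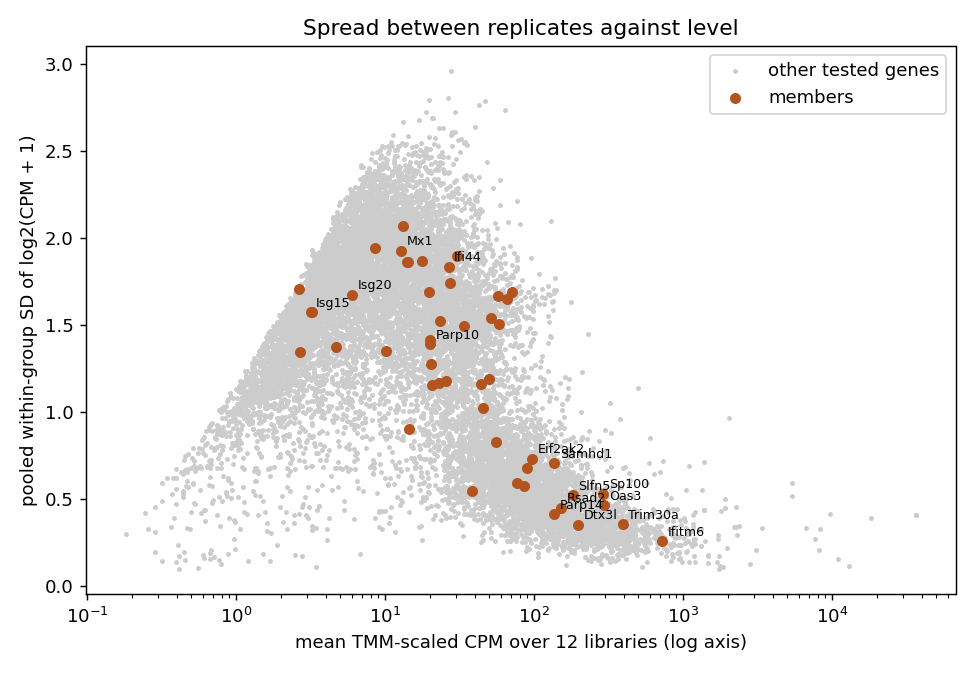
Pooled within-group SD of log2(CPM + 1) (vertical axis) against mean CPM over 12 libraries (log axis), with the members set over all tested genes. The members' median falls from 1.57 under 10 CPM to 0.45 at 100 CPM or more.

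Niche and general macrophages from normal marrow differed in 3 of the 49 genes. Ifitm6 and Parp10 were lower and Ifi44 was higher in niche macrophages by edgeR's quasi-likelihood test at an adjusted p under 0.05. That is 6.12% of the members, against 2.47% of all tested genes (1.5% higher, 0.97% lower). The median log2 fold change, niche minus general, was 0.03 over the members and 0.19 over all tested genes; the members' median was -0.42 with limma-voom and ran from -0.16 to 0.26 with 1 library left out. Groups did not overlap for 11 members, 4 higher and 7 lower in niche macrophages (22.4%, against 18.8% of tested genes, 10% higher and 8.78% lower). An unadjusted p under 0.05 was found for 13 members (26.5%, against 19%). DESeq2 called 11 members, 3 higher and 8 lower (14.2% of tested genes), namely Isg20, Ifi44, Gbp5, Oas3, Oasl1, Mx1, Ifitm6, Xaf1, Parp10, Gbp2 and Ifi27l2a, and limma-voom called 1 (1.44%).

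In metastatic marrow 1 member differed between the sorts. Ifitm6 was again lower in niche macrophages, so that 2.04% of members were called, against 0.831% of tested genes (0.574% higher, 0.256% lower). The median log2 fold change was -0.08 over the members and 0.04 over all tested genes; leaving out niche metastatic library 1 moved the members' median to -0.51. With scaling by library size alone the medians were 0.19 and 0.29, so the sign of the members' median turned while it stayed below that of all genes. Groups did not overlap for 9 members, 3 higher and 6 lower (18.4%, against 17.2% of tested genes, 8.34% higher and 8.85% lower). An unadjusted p under 0.05 was found for 5 members (10.2%, against 8.6%). DESeq2 called 2 members, Ifitm6 and Isg20 (3.73% of tested genes), and limma-voom 1 (1.38%).

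Between metastatic and normal marrow, no member was called in general macrophages. edgeR called 0 of 49 members (0.0155% of tested genes), DESeq2 0 (1.09%) and limma-voom 0 (0.179%), and 2 members had an unadjusted edgeR p under 0.05 (4.08%, against 5.12% of tested genes). The median log2 fold change, metastatic minus normal, was 0.11 over the members and -0.01 over all tested genes. Groups did not overlap for 7 members, 6 higher and 1 lower in metastatic marrow (14.3%, against 12.9% of tested genes, 7.27% higher and 5.64% lower). The summed macrophage markers, by contrast, were lower in every metastatic than in every normal library of the same sort, in general and in niche macrophages, although none of the 10 was called in either comparison (edgeR). For Lyz2, which makes up most of the sum, the log2 fold changes were -0.80 ± 0.16 and -0.54 ± 0.16 (edgeR adjusted p = 0.211 and 0.328). Their part in the members' values was not tested.

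In niche macrophages no member was called between metastatic and normal marrow by edgeR either. The count was 0 of 49 (0.00776% of tested genes), and 12 members had an unadjusted p under 0.05, 9 with higher and 3 with lower values in metastatic marrow (24.5%, against 12.7% of tested genes, 7.35% higher and 5.4% lower). Groups did not overlap for 10 members, 8 higher and 2 lower (20.4%, against 12.7%, 5.63% higher and 7.11% lower). DESeq2 called 6 members, of which 5 were higher (Parp10, Gbp2, Mx1, Xaf1, Oasl1) and 1 lower (Isg20), against 7.41% of tested genes; limma-voom called 0 (0.0854%). The members' median log2 fold change was 0.16, against -0.17 over all tested genes, and it became -0.23 without niche metastatic library 1 and -0.14 without niche normal library B. Niche metastatic library 1 was the highest of its group for 30 of the 49 members (61.2%, against 36% of tested genes), and niche metastatic library 2 was the lowest for 27 (55.1%, against 36.9%). With scaling by library size alone, the members' median was 0.40 and that of all genes 0.06.

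The metastasis effect was then compared directly between the sorts. For no member did the difference of the effects, niche minus general, pass (edgeR 0 of 49, against 0% of tested genes), and 7 members had an unadjusted p under 0.05 (14.3%, against 7.89%). DESeq2 called 5, Parp10, Gbp2, Mx1, Xaf1 and Isg20, against 3.18% of tested genes, and limma-voom called 0. These comparisons share libraries, so their values for 1 gene are not independent of each other. The members' median difference was -0.03, against -0.13 over all tested genes, and -0.48 without niche metastatic library 1. With scaling by library size alone both medians turned, to 0.19 and 0.10; the members' median was 0.02 with DESeq2 and 0.17 with limma-voom.

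**Figure D3:**
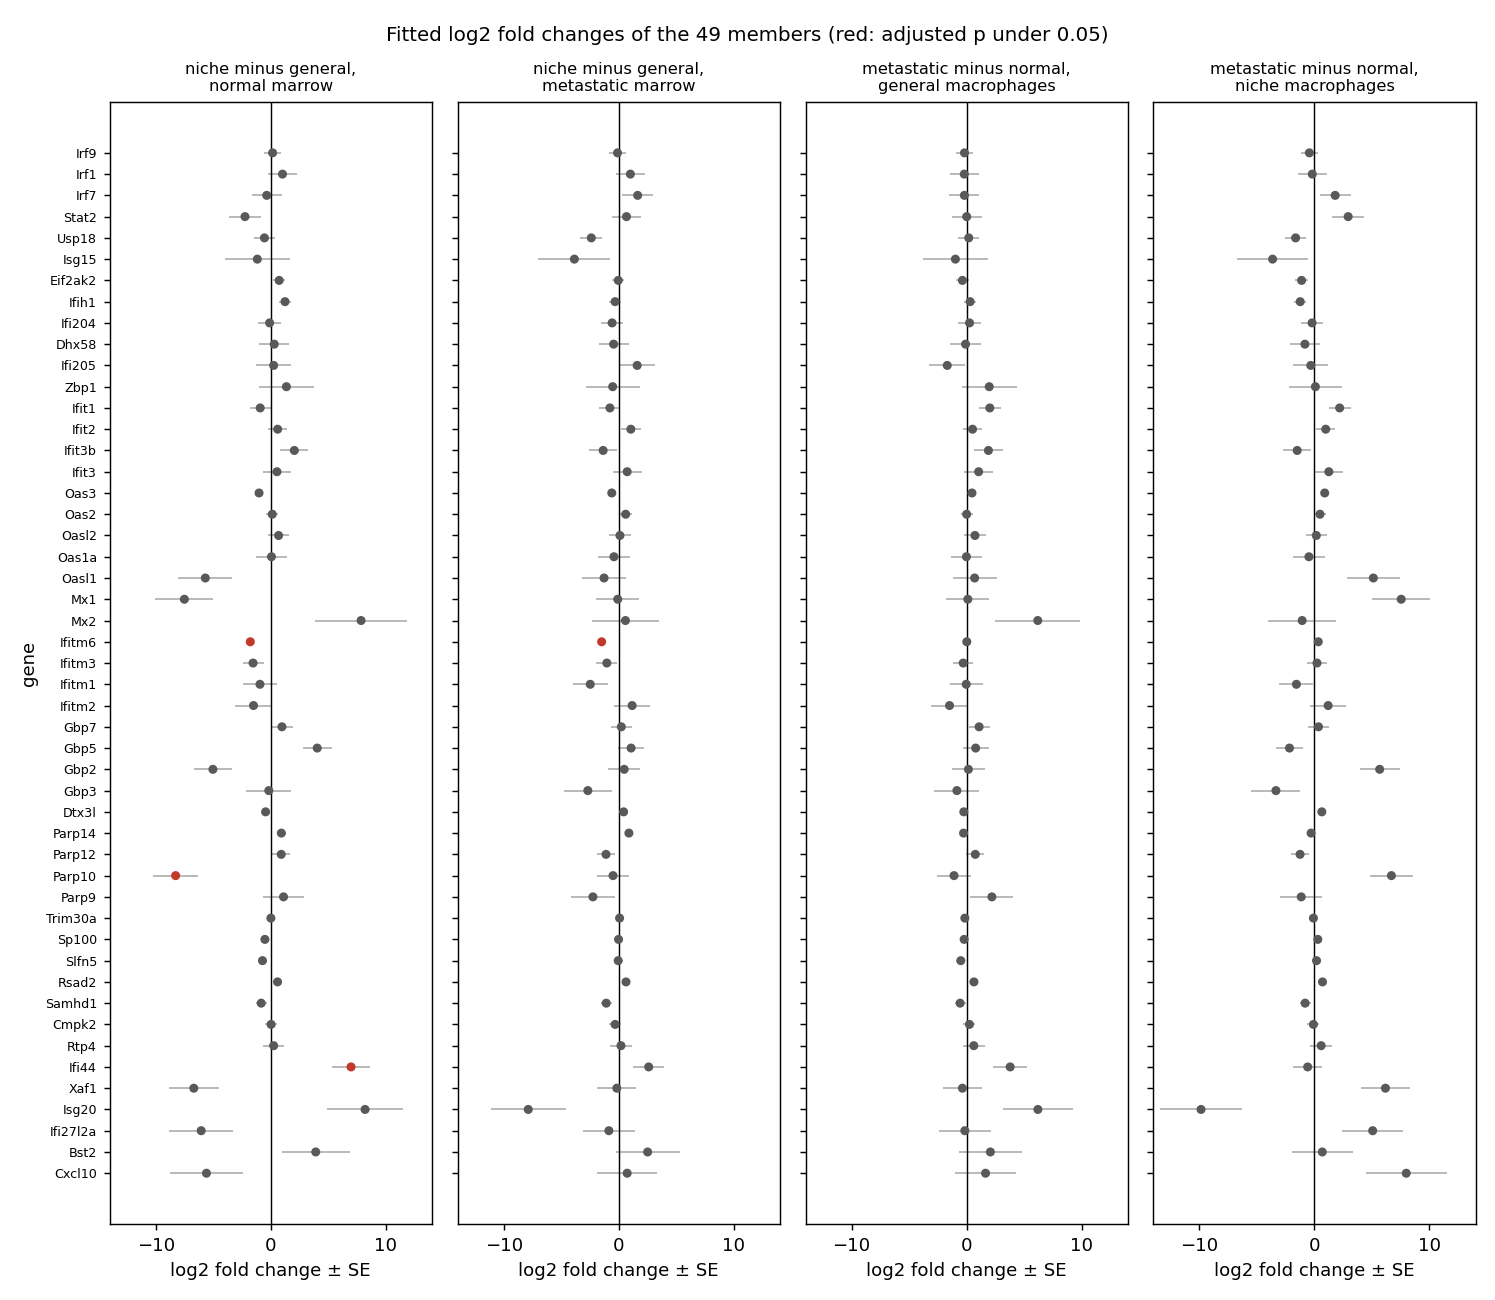
Log2 fold change of each of the 49 genes (horizontal axes, bars ± SE) in the 4 pairwise comparisons, ordered by family, with red points for genes at an edgeR adjusted p under 0.05. The red points are Ifitm6 in both niche against general comparisons, and Ifi44 and Parp10 in normal marrow.

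The Ifitm genes encode small membrane proteins, several of which block entry of viruses; Ifitm6 is a family member expressed in myeloid cells. They lie together on chromosome 7, with Ifitm6 at chr7:141015699-141017924 on the minus strand. In normal marrow Ifitm6 stood at 992, 1194 and 1059 CPM in general macrophages and at 321, 382 and 240.1 CPM in niche macrophages. In metastatic marrow it stood at 1152, 1279.9 and 855 CPM in general libraries and at 383, 347 and 452 CPM in niche macrophages. Every niche library was below every general library in both states of the marrow. The log2 fold change, niche minus general, was -1.78 ± 0.24 (SE) for normal (edgeR adjusted p = 0.000198) and -1.48 ± 0.24 for metastatic marrow (edgeR adjusted p = 0.00193). Leaving out any 1 library left the call in place in 6 of 6 fits in each state, with log2 fold changes between -1.94 and -1.62 and between -1.63 and -1.35. Metastasis itself did not shift it detectably, with log2 fold changes of 0.02 ± 0.23 in general and 0.33 ± 0.23 in niche macrophages (edgeR adjusted p = 1 and 0.606).

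Monocyte and neutrophil transcripts moved in the same direction as Ifitm6. Of 10 monocyte markers, 6 were called lower in niche macrophages from normal marrow and 5 in metastatic marrow, and of 12 neutrophil markers, 6 and 5. Their part in the Ifitm6 difference was not tested. The other Ifitm genes had no call. Ifitm3, which restricts influenza and other enveloped viruses, stood at 91.2 ± 39.2 CPM in general normal libraries and 31.3 ± 26.6 CPM in niche normal ones, and at 74.3 ± 35.3 and 36.5 ± 9.06 CPM in metastatic marrow. Its groups did not overlap in normal marrow and did in metastatic marrow, with log2 fold changes of -1.54 ± 0.91 and -1.03 ± 0.90 (edgeR adjusted p = 0.362 and 1). Ifitm1 was at 45.6 ± 24 and 23.9 ± 25 CPM in normal marrow, with niche normal library B at 0.348 CPM, and the groups overlapped. In metastatic marrow it stood at 31.4, 66.5 and 35.8 CPM in general and at 0.202, 0.35 and 23.5 CPM in niche libraries, which did not overlap (log2 fold change -2.47 ± 1.52, edgeR adjusted p = 0.792). Ifitm2 ranged from 0.136 to 43.7 CPM over the 12 libraries. All 4 Ifitm log2 fold changes were below 0 in normal marrow (-1.78 to -0.94), and in metastatic marrow that of Ifitm2 was 1.17.

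**Figure D4:**
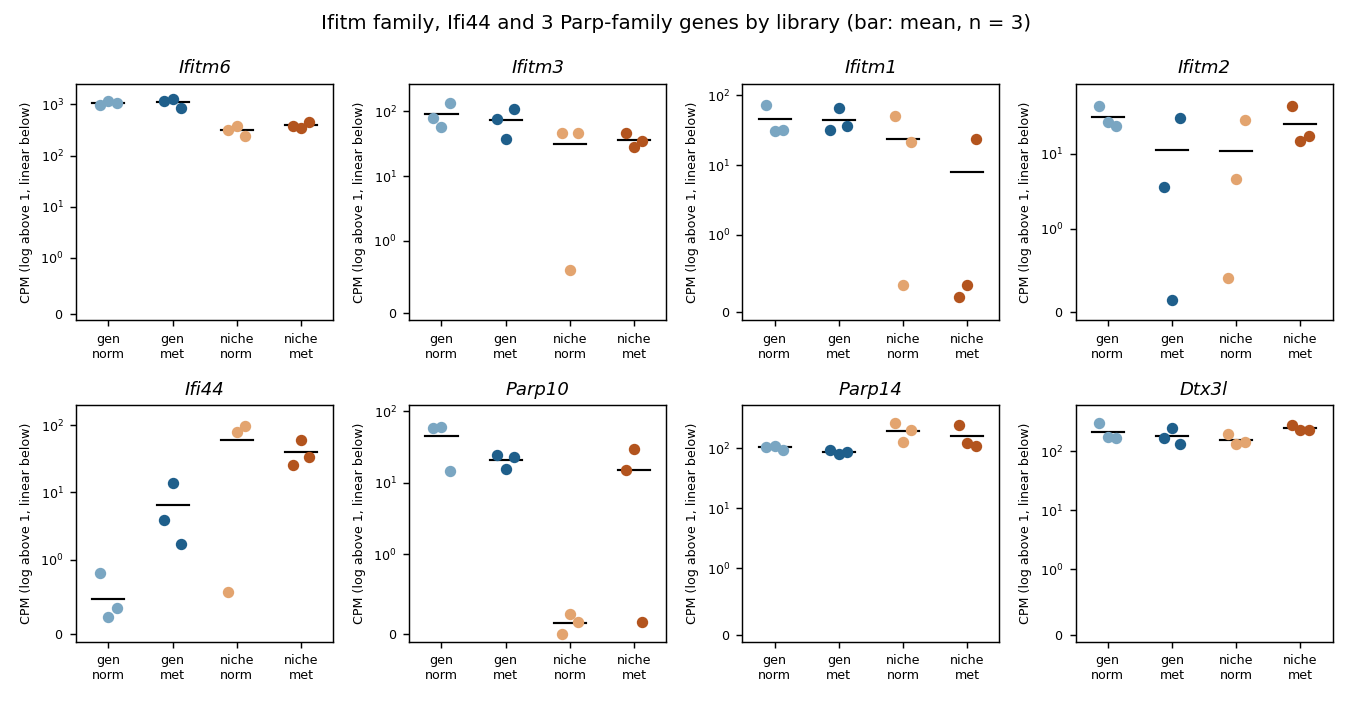
CPM (log axis above 1, linear below) of the 4 Ifitm genes, Ifi44, Parp10, Parp14 and Dtx3l in each library (points) of the 4 groups (gen, general; norm, normal; met, metastatic), with group means as bars. For Ifitm6 all niche libraries, at most 452 CPM, sit below all general libraries, at least 855 CPM; for Ifi44 in normal marrow niche library A, at 0.568 CPM, sits among the general libraries.

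Ifi44, an interferon-induced protein with antiviral activity, lies at chr3:151730922-151749960 on the minus strand. It was near the detection floor in general macrophages from normal marrow, at 0.824, 0.237 and 0.3497 CPM. Its niche normal values were 0.568, 80.2 and 98.9 CPM. Libraries B and C were high, while library A lay within the range of the general libraries, so the groups overlapped. The log2 fold change was 6.98 ± 1.67 (edgeR adjusted p = 0.0287). The call was lost without general normal library 1, 2 or 3 or niche normal library C (edgeR adjusted p = 0.0833, 0.127, 0.120 and 0.0606). In metastatic marrow it stood at 3.94, 14.01 and 1.68 CPM in general and at 26, 59.9 and 33.6 CPM in niche macrophages. Those groups did not overlap, and the log2 fold change of 2.61 ± 1.36 did not pass (edgeR adjusted p = 0.633). Between metastatic and normal marrow the log2 fold change was 3.79 ± 1.45 in general macrophages (edgeR adjusted p = 0.944) and -0.59 ± 1.28 in niche macrophages (0.960).

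The Parp genes encode ADP-ribosyltransferases, and Dtx3l is a ubiquitin ligase that pairs with Parp9. Parp10, a mono-ADP-ribosyltransferase at chr15:76231174-76243441 on the minus strand, stood at 58.9, 60.5 and 14.5 CPM in general normal libraries. In niche macrophages from normal marrow it had 0, 5 and 3 counts, the last pair equal to 0.249 and 0.151 CPM. The groups did not overlap, and the ratio of summed levels was 276 (95% counting interval 140 to 639). The log2 fold change was -8.27 ± 1.98 (edgeR adjusted p = 0.0287), and the call was lost without general normal library 1 or 2 or niche normal library A or C (edgeR adjusted p = 0.0920, 0.0926, 0.0550 and 0.0582).

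In metastatic marrow Parp10 did not separate the sorts. It stood at 24.2, 15.8 and 22.8 CPM in general macrophages and at 15.0, 29.5 and 0.148 CPM in niche macrophages, the third niche library being as low as those from normal marrow (log2 fold change -0.49 ± 1.43, edgeR adjusted p = 1). Between niche macrophages from metastatic and normal marrow the log2 fold change was 6.69 ± 1.85, the smallest p of the members in that comparison, and it did not pass (edgeR adjusted p = 0.263). Dtx3l, the most abundant gene of this family, stood at 295, 175 and 169 CPM in general normal libraries and at 193, 131 and 144 CPM in niche normal ones. In metastatic marrow it stood at 168, 241 and 133 CPM in general libraries and 275, 225 and 228 CPM in niche ones. These groups overlapped in all comparisons except metastatic against normal marrow in niche macrophages (log2 fold change 0.64 ± 0.32, edgeR adjusted p = 0.404). Parp14, which modifies proteins in the interferon response, averaged 104 ± 8.04 and 86.3 ± 6.74 CPM in general libraries and 196 ± 65.7 and 160 ± 74.9 CPM in niche ones, from normal and metastatic marrow. Its log2 fold changes between the sorts were 0.92 ± 0.38 and 0.89 ± 0.38, and neither passed (edgeR adjusted p = 0.229 and 0.542). Parp9 ranged from 0.301 to 50.8 CPM and Parp12 from 16.5 to 75.9 CPM over the 12 libraries.

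The 4 transcription factors among the members had no call by edgeR. Irf9, a DNA-binding partner of Stat2, stood at 19.0, 21.1 and 133 CPM in general normal libraries and at 54.1, 53.6 and 44.5 CPM in metastatic marrow. Niche libraries had 79.7, 64.4 and 49.6 CPM in normal and 61.2, 31.9 and 49.3 CPM in metastatic marrow. General normal library 3 held the highest value, and the groups overlapped. Stat2 had the largest log2 fold change of these genes, 2.93 ± 1.4 between metastatic and normal marrow in niche macrophages (edgeR adjusted p = 0.390). It averaged 5.09 ± 8.16 CPM in normal and 38.9 ± 19.2 CPM in metastatic marrow, and niche normal libraries A and C were at 0.406 and 0.351 CPM. Without niche normal library B that fold change was 6.66 (edgeR adjusted p = 0.0594), and Stat2 was called lower in niche than in general macrophages from normal marrow. Irf7, which amplifies type I interferon production, ranged from 0.487 to 90.6 CPM, and Irf1, an early responder to interferon gamma, from 0.402 to 64.2 CPM.

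Isg15 is a ubiquitin-like modifier and Usp18 the protease that removes it and dampens the type I receptor. Isg15 was scarce: it had 0 counts in 4 libraries and its highest level was 12.4 CPM. Usp18, the more abundant of the pair, stood at 50.4, 64.8 and 58.2 CPM in general normal libraries and at 92.9, 50.3 and 55.2 CPM in metastatic marrow. The niche values were 41.8, 53.1 and 23.6 CPM in normal and 13.3, 0.437 and 24.4 CPM in metastatic marrow. In metastatic marrow all niche libraries were below all general libraries, yet the log2 fold change of -2.38 ± 0.96 did not pass (edgeR adjusted p = 0.523).

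Nucleic acid sensors detect foreign or misplaced RNA and DNA. None of the 6 was called. Eif2ak2, the RNA-activated kinase PKR, stood at 105, 38.3 and 132 CPM in general normal libraries and at 74.6, 75.3 and 64.5 CPM in metastatic marrow. Among niche libraries the level was 261, 115 and 83.0 CPM in normal marrow and 103, 69.8 and 37.5 CPM in metastatic marrow. Niche normal library A was the highest, and the groups overlapped (metastatic minus normal in niche macrophages -1.12 ± 0.53, edgeR adjusted p = 0.390). Ifih1, the RNA sensor MDA5, averaged 145 ± 84.8 CPM in niche and 61.2 ± 20.0 CPM in general normal libraries, without overlap (log2 fold change 1.24 ± 0.51, edgeR adjusted p = 0.228). Ifi204 and Ifi205 belong to a family of close paralogs, so the split of reads between them is uncertain. Ifi204 ran from 1.06 to 135 CPM within niche macrophages from normal marrow, and Ifi205 from 0.297 to 37.0 CPM over the 12 libraries. Zbp1, a sensor of Z-form nucleic acids, averaged 3.33 to 13.04 CPM over the groups, and Dhx58, a regulator of RNA sensing, 14.5 to 25.7 CPM.

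Ifit proteins bind viral RNA and block its translation, and the 4 genes are neighbours on chromosome 19. Ifit1, at chr19:34640871-34650009, had the second smallest p of the members between metastatic and normal marrow in general macrophages. It stood at 32.3, 28.8 and 13.3 CPM in general normal libraries and at 102, 145 and 54.9 CPM in metastatic marrow. In niche macrophages it stood at 4.46, 0.845 and 33.8 CPM in normal and 59.9, 45.1 and 73.3 CPM in metastatic marrow. Metastatic libraries were above normal ones in both sorts without overlap. The log2 fold changes of 2.02 ± 0.94 and 2.19 ± 0.95 did not pass (edgeR adjusted p = 0.944 and 0.381). Their difference was 0.17 ± 1.28 (edgeR adjusted p = 1). Without niche normal library C the niche value was 4.49 (edgeR adjusted p = 0.0570). Ifit2 averaged 26.1, 37.5, 39.5 and 78.2 CPM and Ifit3 10.4, 21.5, 15.1 and 36.0 CPM, in the order general normal, general metastatic, niche normal and niche metastatic. Niche metastatic library 1, at 82.4 CPM, carried the last Ifit3 mean, the other two being at 13.2 and 12.5 CPM. Ifit3 and Ifit3b are near-identical copies, so their separate values are uncertain. Ifit3b averaged 9.96, 37.1, 41.4 and 14.6 CPM in the order given. It had lower values in metastatic than in normal niche libraries, without overlap (log2 fold change -1.50 ± 1.21, edgeR adjusted p = 0.682). Summed over the 4 genes, the family stood at 71.3 ± 32.7, 197 ± 59.7, 109 ± 17.3 and 188 ± 56.8 CPM in the same order.

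Oas enzymes make short oligoadenylates that activate an RNA-degrading nuclease, an activity that Oasl1 lacks. Oas3 was the most abundant, at 267, 363 and 298 CPM in general normal libraries and 428, 554 and 305 CPM in metastatic marrow. Niche libraries had 91.2, 182 and 184 CPM in normal and 417.5, 220.0 and 213 CPM in metastatic marrow. Niche normal libraries were below general normal libraries and below niche metastatic libraries without overlap. The log2 fold changes were -1.02 ± 0.34 (edgeR adjusted p = 0.140) and 0.89 ± 0.34 (0.381), neither passing. Oasl1 stood at 0.231 ± 0.0746 CPM in niche normal libraries and at 12.2 ± 14.1 CPM in general macrophages (log2 fold change -5.69 ± 2.34, edgeR adjusted p = 0.228). Oas1a, which has close paralogs, Oas2 and Oasl2 had adjusted p-values of 0.796 or more in the niche against general comparison of normal marrow by edgeR. Over the 12 libraries Oas1a ranged from 0.0874 to 37.7 CPM, Oas2 from 35.6 to 159 CPM and Oasl2 from 2.80 to 203 CPM.

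Mx proteins are dynamin-like GTPases that trap viral components. Mx1 stood at 36.3, 0.0593 and 12.99 CPM in general normal libraries and at 21.2, 23.5 and 8.42 CPM in metastatic marrow. The niche values were 0.162, 0.0497 and 0.0502 CPM in normal and 31.1, 0.0437 and 19.2 CPM in metastatic marrow. The niche normal libraries held 4 counts in all, and 1 library in each of 2 other groups was as low. The ratio of niche metastatic to niche normal levels was 213 (95% counting interval 83.0 to 784) and the log2 fold change was 7.54 ± 2.53 (edgeR adjusted p = 0.381). Mx2, annotated as a polymorphic pseudogene, was below 0.1 CPM in 9 of 12 libraries.

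Gbp proteins are interferon-inducible GTPases that attack vacuoles holding microbes, and the 4 members are neighbours on chromosome 3 with close sequence, so their separate counts are uncertain. Gbp7, the most abundant, stood at 39.1, 7.83 and 33.9 CPM in general normal libraries and 80.5, 68.7 and 23.3 CPM in metastatic marrow. Among niche libraries the level was 75.3, 2.44 and 81.2 CPM in normal and 65.6, 44.8 and 91.9 CPM in metastatic marrow. The groups overlapped in each comparison. Gbp2 stood at 13.8, 13.5 and 19.5 CPM in general normal libraries and at 21.2, 22.4 and 8.78 CPM in metastatic marrow. In niche macrophages it stood at 0.568, 0.547 and 0.301 CPM in normal and at 53.7, 14.6 and 4.73 CPM in metastatic marrow. Niche normal libraries were below those of each other group. The log2 fold changes were -5.03 ± 1.68 against general normal (edgeR adjusted p = 0.141) and 5.67 ± 1.73 for metastasis in niche macrophages (0.346). Gbp5 went the other way between the sorts, with 97.1 ± 66.2 CPM in niche and 5.89 ± 4.68 CPM in general normal libraries (log2 fold change 4.04 ± 1.25, edgeR adjusted p = 0.108). Gbp3 ranged from 0.0874 to 38.7 CPM.

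**Figure D5:**
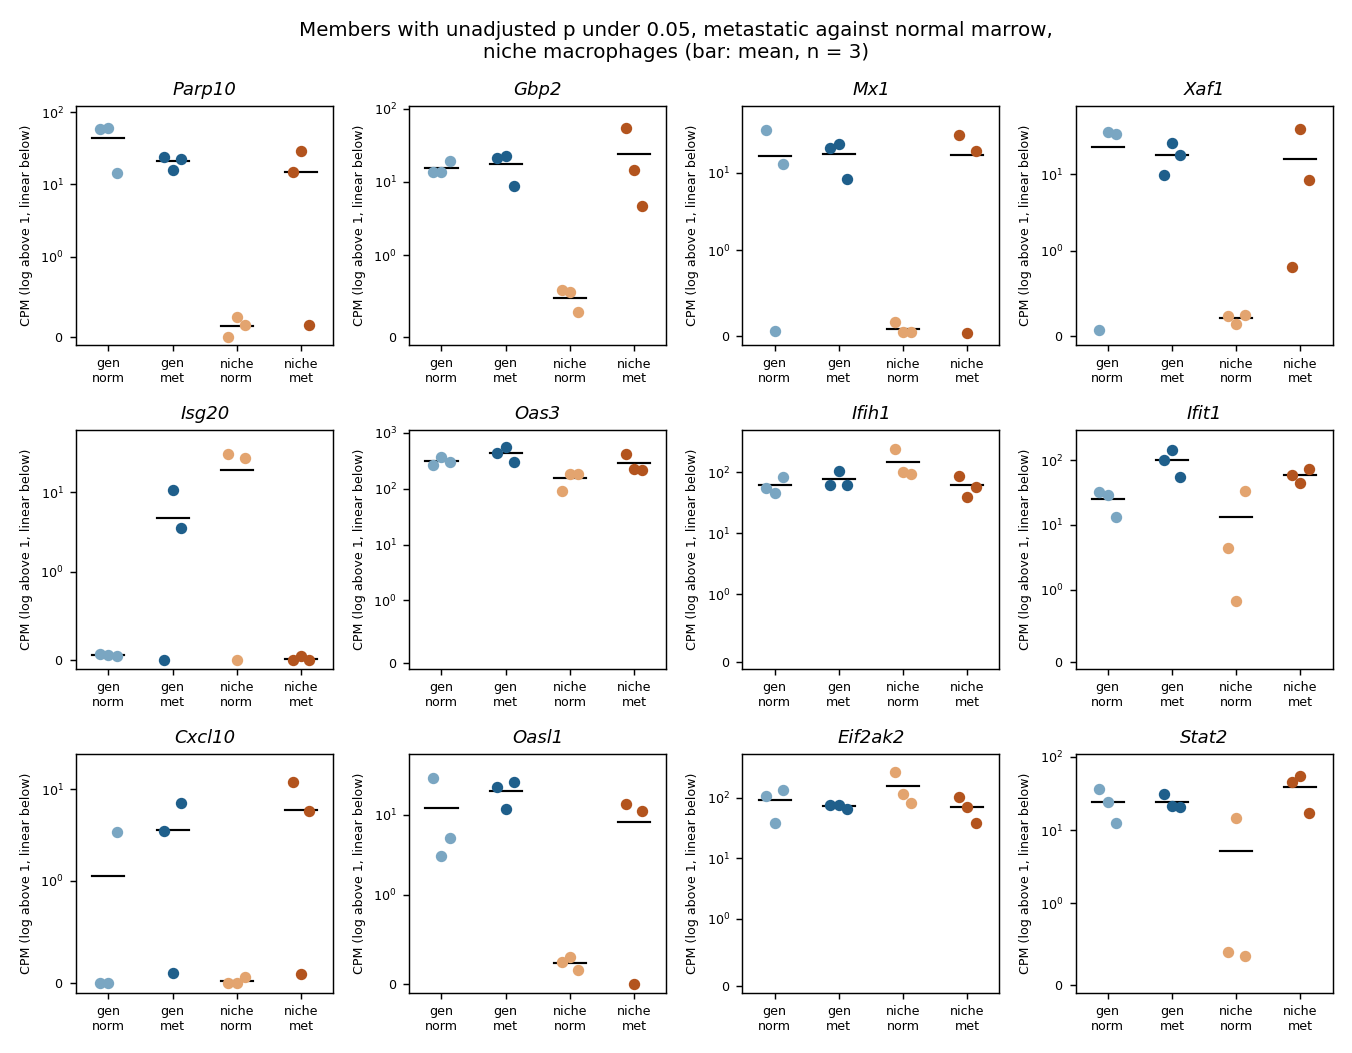
CPM (log axis above 1, linear below) in each library of the 4 groups (gen, general; norm, normal; met, metastatic), with group means as bars, for the 12 members with an unadjusted edgeR p under 0.05 between niche macrophages from metastatic and normal marrow. Parp10, Gbp2, Mx1, Xaf1, Oasl1 and Cxcl10 are below 1 CPM in all niche normal libraries, and no gene passes edgeR's test after adjustment.

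Of the 13 other effectors, edgeR called Ifi44; DESeq2 also called Isg20, Xaf1 and Ifi27l2a in normal marrow, Isg20 in metastatic marrow, and Isg20 and Xaf1 for metastasis in niche macrophages. Trim30a, a ubiquitin ligase and the most abundant of them, stood at 420.3, 434 and 370.1 CPM in general normal libraries and 396, 465 and 239.7 CPM in metastatic marrow. Niche libraries had 564, 313 and 358 CPM in normal and 454, 360.4 and 346 CPM in metastatic marrow. Its log2 fold changes lay between -0.15 and 0.08 with an SE of 0.28 in the 4 pairwise comparisons. Isg20, an exonuclease that degrades viral RNA, varied far more. It was at 0.0687, 0.0593 and 0.04995 CPM in general normal libraries and at 0, 10.8 and 3.55 CPM in metastatic marrow. In niche macrophages it was at 30.3, 0 and 27.0 CPM in normal marrow, and the metastatic libraries held 0, 1 and 0 counts. Niche normal libraries A and C thus stood apart from library B and from all metastatic niche libraries. The difference of the metastasis effects was -16.06 ± 4.65, the smallest p of the members, and did not pass (edgeR adjusted p = 0.452); with groups this near 0 a fitted value depends on the prior count.

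Among the remaining effectors, Xaf1, which opposes inhibitors of cell death, was at 0.149 to 0.251 CPM in niche normal libraries and stood at 0.0687, 34.8 and 33.1 CPM in general normal ones, so that the groups overlapped (log2 fold change -6.69 ± 2.20, edgeR adjusted p = 0.136). Samhd1, which depletes nucleotides, averaged 144 ± 58.8 CPM in general libraries and 68.5 ± 25.1 CPM in niche ones from metastatic marrow (-1.08 ± 0.48, edgeR adjusted p = 0.550). Rsad2, the antiviral protein viperin, averaged 93.9 ± 9.35, 146 ± 57.2, 141 ± 49.98 and 229 ± 58.7 CPM in the order general normal, general metastatic, niche normal and niche metastatic, and its log2 fold changes of 0.59 to 0.70 in the 4 pairwise comparisons did not pass. Bst2, the tether that holds budding virus, and Cxcl10, a chemokine, had means of at most 7.03 CPM in every group. Ifi27l2a averaged 0.110 to 7.75 CPM. Rtp4, Cmpk2, Sp100 and Slfn5 averaged 47.98 to 340.06 CPM over the groups, and none passed in any comparison.

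The rest of the pathway was read from lists of 106 genes, of which 84 were tested. In normal marrow 2 were higher and 1 lower in niche than in general macrophages, in metastatic marrow 1 was lower, and none was called between metastatic and normal marrow. Over all tested genes the shares called were 2.47% in normal and 0.831% in metastatic marrow. Of the 16 ligands looked up, 1 had a row in the count table, Ifng. It stood at 8.14, 0 and 1.57 CPM in general macrophages from metastatic marrow and averaged at most 0.0604 CPM in the other groups. Ifng was not tested. The 6 receptor genes were tested and none was called; summed, they ran from 354 to 508 CPM in general and from 258 to 486 CPM in niche libraries. Ifnar1, a subunit of the type I receptor, averaged 55.5, 73.3, 55.1 and 49.8 CPM in the order general normal, general metastatic, niche normal and niche metastatic. Ifnar2, its partner, averaged 79.4, 80.4, 95.6 and 55.0 CPM, and Ifngr1, the ligand-binding chain for interferon gamma, 96.7, 139.6, 93.3 and 101 CPM. Ifngr2 averaged 75.9 ± 65.7, 40.2 ± 0.699, 9.42 ± 15.6 and 39.1 ± 42.9 CPM. Its niche values were 0.0812, 27.4 and 0.753 CPM in normal and 85.1, 0.35 and 31.9 CPM in metastatic marrow. Ifnlr1, the interferon lambda receptor chain, averaged 109, 45.9, 66.4 and 22.4 CPM.

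The 3 pathway genes called in normal marrow moved in both directions. Irf8, a transcription factor of the myeloid lineage, stood at 39.4, 43.8 and 60.1 CPM in general libraries and 153, 130.5 and 206 CPM in niche ones (log2 fold change 1.77, edgeR adjusted p = 0.0478). Summed markers of plasmacytoid dendritic cells, an interferon-producing type that expresses Irf8, ran from 217 to 282 CPM in general normal and from 410 to 615 CPM in niche normal libraries. Of the 9 listed, which include the member Bst2, 6 were tested and none was called. The defining marker Siglech had 0 counts in the niche normal libraries. B and plasma cell markers ran from 161 to 266 CPM in general normal and from 1242 to 2344 CPM in niche normal libraries. Of those, 10 were tested and 4 were called higher in niche macrophages. The part of either list in the Irf8 difference was not tested. Iigp1, an interferon-inducible GTPase, stood at 0.343, 0.771 and 1.75 CPM in general libraries and 96.3, 25.4 and 71.5 CPM in niche ones (6.06, edgeR adjusted p = 0.0429). Neither Irf8 nor Iigp1 was called between the sorts in metastatic marrow by edgeR. Ly6c2, also a monocyte marker, averaged 1752 ± 54.7 CPM in general libraries and 509 ± 199 CPM in niche ones (-1.78, edgeR adjusted p = 0.0004), and 1821 ± 216 against 541 ± 89.1 CPM in metastatic marrow (-1.75, edgeR adjusted p = 0.0008). It is 1 of the monocyte markers summed above, and their part in its difference was not tested.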

How the data were processed

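Bulk RNA was sequenced in 12 libraries, 3 in each of 4 groups. The authors deposited 1 table of expected counts per gene, 73.9% of them whole numbers. The submitters' processing notes name Partek, STAR 2.7.3a, DESeq2 1.40.2, R 4.3.1 and the build mm10, with no role or order. The counting program, annotation and strand setting are not given in the sources used here, so overlapping and antisense genes cannot be separated. Here counts were rounded, genes filtered with filterByExpr, scaled by TMM and tested with edgeR 4.0.16 (quasi-likelihood, 4 group means over 12 libraries, R 4.3.3), with Benjamini-Hochberg adjustment over 12882 genes. Calls are at an adjusted p under 0.05. The SE of a log2 fold change was back-calculated as its absolute value divided by the square root of the F statistic. It is thus an approximation, least certain for genes near 0. Alternatives used DESeq2 1.42.0, limma 3.58.1 voom, other scalings and filters, the libraries of a comparison alone, a replicate block, removal of haemoglobin, immunoglobulin, mitochondrial and small RNA genes, and each library left out. The fit was tested on simulated data. Levels are TMM-scaled CPM; exon lengths and positions come from GENCODE M21 (GRCm38, the same assembly as mm10). Given with library values are called members, the 3 smallest p-values of each comparison and the most abundant gene of each family. Members and lists were chosen with earlier results of these data known. Libraries came from different mice, and no pair within a group differed by as little as sampling noise. 1 further gene of the pathway is not reported here.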

Additional observations from a re-analysis of the deposited data

How the results depend on the processing

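Members called changed most with the tool. In niche against general macrophages from normal marrow, edgeR called 3, DESeq2 11, limma-voom 1 and a fit of the comparison's libraries alone 1, with 41 members tested. In metastatic marrow edgeR called 1 and DESeq2 2; DESeq2 gave no adjusted p for 2 members. For metastasis in niche macrophages edgeR called 0 and DESeq2 6, and for the difference of effects 0 and 5. Leaving out 1 library gave 1 to 4 calls in normal marrow, 1 in metastatic marrow and 0 in the other comparisons. Ifitm6 kept its call in both states under every alternative run. Ifi44 and Parp10 lost theirs with limma-voom (adjusted p = 0.216 and 0.150) and with the comparison's libraries alone (0.130 and 0.0866). Direction was recomputed for members among the 3 smallest p-values of a comparison or with an unadjusted p under 0.05, and none of these fold changes turned. The members' median did: it was -0.42 in normal marrow with limma-voom, against 0.03. With 1 library left out it ran from -0.16 to 0.26 in normal marrow and from -0.51 to 0.12 in metastatic marrow. For metastasis it ran from 0.01 to 0.23 in general and from -0.23 to 0.27 in niche macrophages, and for the difference from -0.48 to 0.15. The median over all tested genes was not recomputed in the limma-voom, DESeq2 and leave-one-out fits. A shift shared by all genes therefore cannot be told apart there. A replicate block left 1 member called in niche against general macrophages from metastatic marrow and 0 for metastasis in general macrophages, with 119 and 3 genes in all, against 107 and 2. Same-numbered libraries did not deviate together (correlations from -0.004 to 0.022). With replicates this variable, values near 0 cannot decide whether general and niche libraries of the same number shared mice. The numbers were not taken as pairs because the design text says that the replicates come from different mice, and niche normal libraries carry none.

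Over all genes, DESeq2 called 1825, 480, 141, 954 and 410 (normal marrow, metastatic marrow, metastasis in general, in niche, difference), against 318, 107, 2, 1 and 0 by edgeR. limma-voom called 186, 178, 23 and 11 in the first 4, and the comparison's libraries alone 163 in the first and 0 in the fourth. For metastasis in general and niche macrophages, no filter gave 5 and 3, and library size alone 0 and 0; in niche macrophages RLE gave 0, a minimum of 10 counts in every library 3, and removing genes 2. Leaving out 1 library gave 176 to 402, 66 to 83, 0 throughout, 0 to 66 and 0 to 16. The cause was not tested. At this depth 15 members had a library at or below 3 counts.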
